A study of Mus musculus with 6 samples.

Results

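The receptors that bind the constant (Fc) part of immunoglobulin G, with the signalling chain they share, were followed in sorted mouse blood progenitors. The 6 genes were chosen by symbol: Fcgr1, Fcgr2b, Fcgr3, Fcgr4, Fcer1g and Fcgrt, out of 53677 symbols in the deposited table, and all 6 were present in it. Values are RPKM, counted reads scaled to gene length and to library depth. Short-term hematopoietic stem cells (ST-HSC) had been sorted from bone marrow of C57BL/6J mice as lineage-negative, Kit-positive, CD48-positive, CD150-negative cells. The dnTCF4 group held 3 libraries from mice with the genotype label dnTCF4+/+, which express a dominant-negative TCF4, and the WT group held 3 libraries from mice labelled dnTCF4-/-. The labels give no age, and neither the promoter nor the cell type that drives dnTCF4. They list no Sca-1 selection.

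Fc gamma receptors let a cell sense targets coated with antibody. Fcgr1, Fcgr3 and Fcgr4 encode the ligand-binding alpha chains of the activating receptors (CD64, CD16 and CD16-2), which need the Fcer1g chain and its ITAM, a tyrosine motif that recruits the kinase Syk, for signalling and for stable surface expression. Fcgr2b encodes CD32, the inhibitory receptor, whose ITIM motif recruits the phosphatase SHIP1. Fcgrt encodes the heavy chain of the neonatal Fc receptor FcRn, which pairs with beta-2-microglobulin and returns IgG and albumin from endosomes to the cell surface. In mouse bone marrow, antibodies to CD16/32 see the products of Fcgr3 and Fcgr2b together, and strong CD16/32 staining marks granulocyte-monocyte progenitors.

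Libraries held 57400000 to 110900000 counted reads in dnTCF4 and 61800000 to 67700000 in WT, as recovered from the values. The test ran on 11326 genes averaging 1 RPKM or more over the 6 libraries (limma on log2(RPKM + 1), Benjamini-Hochberg adjusted p under 0.05) and called 34 genes, 5 with higher and 29 with lower levels in dnTCF4. The median log2 fold change over the genes tested, dnTCF4 minus WT, was 0.14 with 68.5% of genes higher, and -0.05 with 41.4% higher after median ratio scaling. Immunoglobulin genes held 1.55%, 0.732% and 1.53% of reads in dnTCF4 libraries 1 to 3, against 14.8%, 7.32% and 7.22% in WT libraries 1 to 3. These reads are part of the depth that RPKM is scaled to. With those genes left out and libraries rescaled to the remaining reads, the median was 0.04 with 56.3% of genes higher. Tcf7l2, the gene of TCF4, was at 2.15, 1.99 and 2.80 RPKM in dnTCF4 libraries 1 to 3, against 1.56, 1.29 and 1.69 RPKM in WT libraries 1 to 3, and did not pass (limma adjusted p = 0.52). Whether dnTCF4 reads count toward Tcf7l2 is not given in the sources used here. Of the surface genes of the sort, Kit was at 69.1 ± 31.2 RPKM in dnTCF4 and 64.2 ± 18.3 in WT, and Cd48 at 1195 ± 209 RPKM in dnTCF4 and 901 ± 90.6 in WT. Slamf1, the gene of CD150, was at 0.969 ± 0.218 RPKM in dnTCF4 and 0.931 ± 0.191 in WT. In bulk RNA, a different number of cells that carry a transcript and a different amount per cell cannot be told apart.

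Among the Fc receptor genes the activating alpha chains had higher values in dnTCF4 and the inhibitory receptor had lower ones, and none passed the test over all genes. The 3 dnTCF4 values lay above the 3 WT values for Fcgr1, Fcgr3 and Fcgr4, and below them for Fcgr2b. For Fcer1g and Fcgrt the groups overlapped. Of the 5 genes that reached a mean of 1 RPKM, 0 were called by limma after adjustment over all genes, where 0.3% of all tested genes were called (0.0441% higher and 0.256% lower). Of the same 5, 3 had an unadjusted p under 0.05 (Fcgr3, Fcgr2b and Fcgr4), and voom on recovered reads likewise called 0 with 3 at an unadjusted p under 0.05. Over all tested genes 9.62% had such an unadjusted p. Of the 5, 2 were higher without overlap, where 15.4% of all tested genes were, and 1 was lower without overlap, where 2.26% were.

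**Figure D1:**
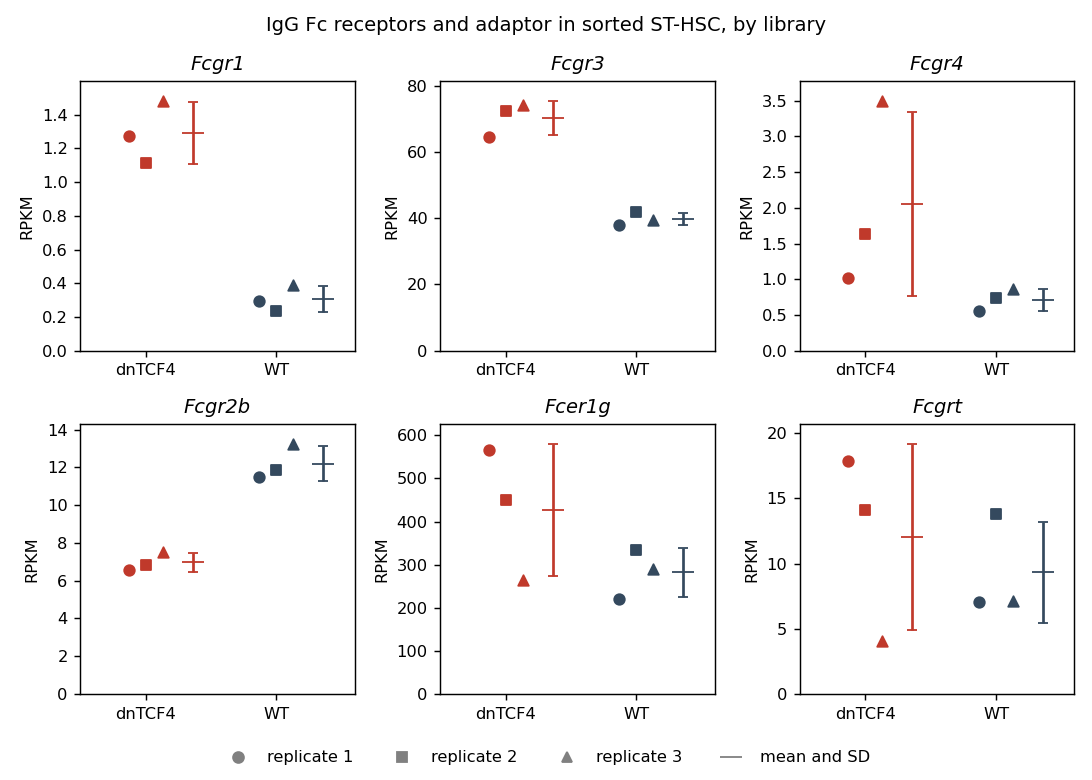
RPKM of the 6 genes in each library (linear axes from 0, points by replicate number, bars for mean and SD of 3 libraries). dnTCF4 libraries sit above WT libraries for Fcgr1, Fcgr3 and Fcgr4 and below them for Fcgr2b. The groups overlap for Fcer1g and Fcgrt, where dnTCF4 replicate 3 is the lowest dnTCF4 library.

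Fcgr3 encodes CD16, the low-affinity activating receptor of myeloid and natural killer cells, and was the most abundant alpha chain. It was at 64.4, 72.2 and 74.1 RPKM in dnTCF4 libraries 1 to 3, against 38.1, 41.7 and 39.4 RPKM in WT libraries 1 to 3. The libraries of a genotype lay close together and the genotypes were well apart. The mean was 70.2 ± 5.11 RPKM in dnTCF4 and 39.7 ± 1.86 in WT (SD, n = 3 each), 1.77-fold higher in dnTCF4. On the log2 scale the difference was 0.81 (SE 0.16, limma adjusted p = 0.14), with a 95% confidence interval of 0.43 to 1.18. It was 0.57 after median ratio scaling. Between 4197 and 13904 reads per library stood behind these values.

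Fcgr1 encodes CD64, the high-affinity receptor of monocytes and macrophages. It was at 1.27, 1.11 and 1.48 RPKM in dnTCF4 libraries 1 to 3, against 0.292, 0.238 and 0.388 RPKM in WT libraries 1 to 3. The lowest dnTCF4 library was well above the highest WT library, and the mean of 1.29 ± 0.184 RPKM in dnTCF4 was 4.22-fold that of 0.306 ± 0.0761 in WT. These values rest on 208, 320 and 220 reads in dnTCF4 and 48, 38 and 68 reads in WT. Fcgr1 did not reach a mean of 1 RPKM. In the fit without a filter on low values its log2 fold change was 0.81 (SE 0.13) with a limma adjusted p of 0.27. That value is held down by the pseudocount and was 1.78 with a pseudocount of 0.1 and 2.06 by voom. Without the filter, 10.4% of genes were higher in dnTCF4 without overlap.

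Fcgr4 encodes the mouse receptor CD16-2, found on monocytes, macrophages and neutrophils. It was at 1.02, 1.63 and 3.50 RPKM in dnTCF4 libraries 1 to 3, against 0.552, 0.735 and 0.858 RPKM in WT libraries 1 to 3. The groups did not overlap, yet dnTCF4 replicate 1 was close to WT replicate 3 and dnTCF4 replicate 3 stood far above the rest. The mean was 2.05 ± 1.29 RPKM in dnTCF4 and 0.715 ± 0.154 in WT, from 81 to 252 reads per library in dnTCF4 and 44 to 73 in WT. The log2 fold change was 0.75 (SE 0.29, limma adjusted p = 0.48), and 1.25 with a pseudocount of 0.1. Without dnTCF4 replicate 3 the gene fell below the mean of 1 RPKM and was not tested.

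Fcgr2b, the inhibitory receptor of B cells and myeloid cells, had lower values in dnTCF4. It was at 6.57, 6.83 and 7.54 RPKM in dnTCF4 libraries 1 to 3, against 11.5, 11.9 and 13.2 RPKM in WT libraries 1 to 3. The spread within each genotype was small beside the gap between them. The mean was 6.98 ± 0.503 RPKM in dnTCF4 and 12.2 ± 0.910 in WT, a dnTCF4 level 0.572 times that of WT. On the log2 scale the difference was -0.73 (SE 0.16, limma adjusted p = 0.18), with a 95% confidence interval of -1.11 to -0.35. It was -0.94 after median ratio scaling, with an adjusted p of 0.086. Between 2399 and 5188 reads per library stood behind these values. The antisense gene Gm38204 overlaps 155 exonic bases of Fcgr2b and had a mean of 0.00486 RPKM in dnTCF4 and 0.0170 in WT, far below Fcgr2b.

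The ratio of Fcgr3 to Fcgr2b compares the activating with the inhibitory low-affinity receptor inside each library and does not depend on the scaling between libraries. It was 9.81, 10.6 and 9.82 in dnTCF4 libraries 1 to 3, and 3.31, 3.51 and 2.97 in WT libraries 1 to 3. Every dnTCF4 library was well above every WT library, with a mean log2 ratio of 3.33 ± 0.06 in dnTCF4 and 1.70 ± 0.12 in WT (SD, n = 3 each). The difference of 1.63 on the log2 scale is a 3.09-fold higher ratio in dnTCF4. The exact two-sided permutation p was 0.1, the smallest that 3 against 3 can give. Since Fcgr3 was higher and Fcgr2b lower without overlap, the ratio had to separate the groups. This p was thereby fixed and adds nothing to the values of the 2 genes. With same-numbered libraries taken as pairs, flipping the signs of the 3 differences gave an exact p of 0.25. The difference ranged from 1.53 to 1.68 over 9 alternative computations, among them replicates 2 and 3 only. Fcgr2b made up 8.67% ± 0.308 of the summed RPKM of the 4 alpha chain genes in dnTCF4 and 23.1% ± 1.42 in WT. Fcgr3 made up 87.2% ± 1.49 in dnTCF4 and 75.0% ± 1.72 in WT. The sum itself was 80.6 ± 6.72 RPKM in dnTCF4 and 53.0 ± 2.23 in WT.

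**Figure D2:**
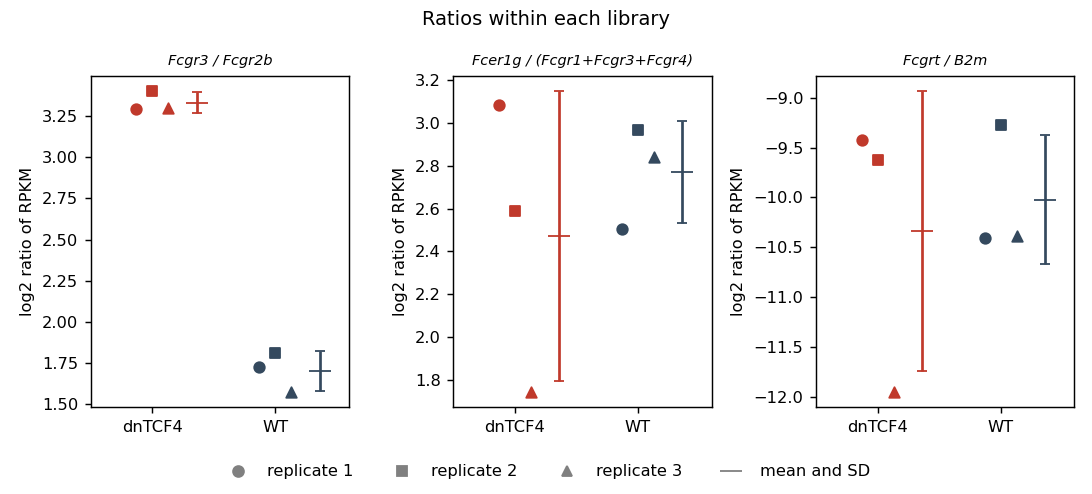
Log2 ratios of RPKM within each library for Fcgr3 to Fcgr2b, Fcer1g to the summed activating alpha chains, and Fcgrt to B2m (points by replicate number, bars for mean and SD of 3 libraries, axes not starting at 0). The first ratio separates the genotypes, as each of its genes does, with means of 3.33 in dnTCF4 and 1.70 in WT. The other ratios do not.

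The annotation limits how these levels compare between genes. In GENCODE M21 the combined exons of Fcgr2b span 5790 bases, while its longest transcript has 3544. RPKM is computed per base of the combined exons, and for Fcgr3 those span 1736 bases with a longest transcript of 1347. The levels of both genes, and so the size of their ratio, rest on these lengths. The transcripts of both genes also resemble each other: 9.58% of the 50-base words of Fcgr3 also occur in Fcgr2b. Of the words of Fcgr2b, 6.95% occur in at least 1 other gene, and 2.92% in Fcgr3. Reads from those stretches could be assigned to any gene that holds them, and how the authors treated them is not given in the sources used here. Fcgr1, Fcgr4, Fcer1g and Fcgrt shared 0% of such words with another gene.

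Fcer1g encodes the common gamma chain, the ITAM adaptor of Fcgr1, Fcgr3 and Fcgr4 and of the IgE receptor. It was by far the most abundant transcript of the set. Its values were 566.1, 451.0 and 264.1 RPKM in dnTCF4 libraries 1 to 3, against 220.9, 334.7 and 290.9 RPKM in WT libraries 1 to 3. dnTCF4 replicates 1 and 2 were above all WT libraries, while dnTCF4 replicate 3 was below WT replicates 2 and 3. The log2 fold change was 0.55 (SE 0.31, limma adjusted p = 0.62). Without dnTCF4 replicate 3 it was 0.86 (adjusted p = 0.32), and in replicates 2 and 3 only it was 0.15.

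Set against the alpha chains that use it, Fcer1g was 8.48, 6.02 and 3.34 times the summed RPKM of Fcgr1, Fcgr3 and Fcgr4 in dnTCF4 libraries 1 to 3. In WT libraries 1 to 3 it was 5.68, 7.84 and 7.17 times that sum. The groups overlapped, and adaptor RNA exceeded alpha chain RNA in each of the 6 libraries. The mean log2 ratio was 2.47 ± 0.68 in dnTCF4 and 2.77 ± 0.24 in WT, and the exact permutation test, two-sided, gave p = 0.7. Without dnTCF4 replicate 3 the difference of -0.30 turned to 0.06.

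Fcgrt, the FcRn heavy chain, was at 17.9, 14.1 and 4.09 RPKM in dnTCF4 libraries 1 to 3, against 7.07, 13.8 and 7.11 RPKM in WT libraries 1 to 3. dnTCF4 replicate 3 had the lowest value of all and dnTCF4 replicate 1 the highest. The log2 fold change was 0.20 (SE 0.51, limma adjusted p = 0.87, 95% confidence interval -0.996 to 1.39). Without dnTCF4 replicate 3 it was 0.77, without dnTCF4 replicate 1 it was -0.17, in replicates 2 and 3 only it was -0.32, and after median ratio scaling it was -0.01, so no direction held. B2m, its light chain and also that of MHC class I, was at 12284, 11193 and 16233 RPKM in dnTCF4 libraries 1 to 3, against 9618, 8510 and 9496 RPKM in WT libraries 1 to 3. B2m was higher in dnTCF4 without overlap (log2 fold change 0.51, limma adjusted p = 0.45). The log2 ratio of Fcgrt to B2m was -10.34 ± 1.41 in dnTCF4 and -10.02 ± 0.65 in WT (exact two-sided permutation p = 0.8), and the difference of -0.31 turned to 0.49 without dnTCF4 replicate 3. Albumin, the other cargo of FcRn, was listed at 0 in all libraries.

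**Figure D3:**
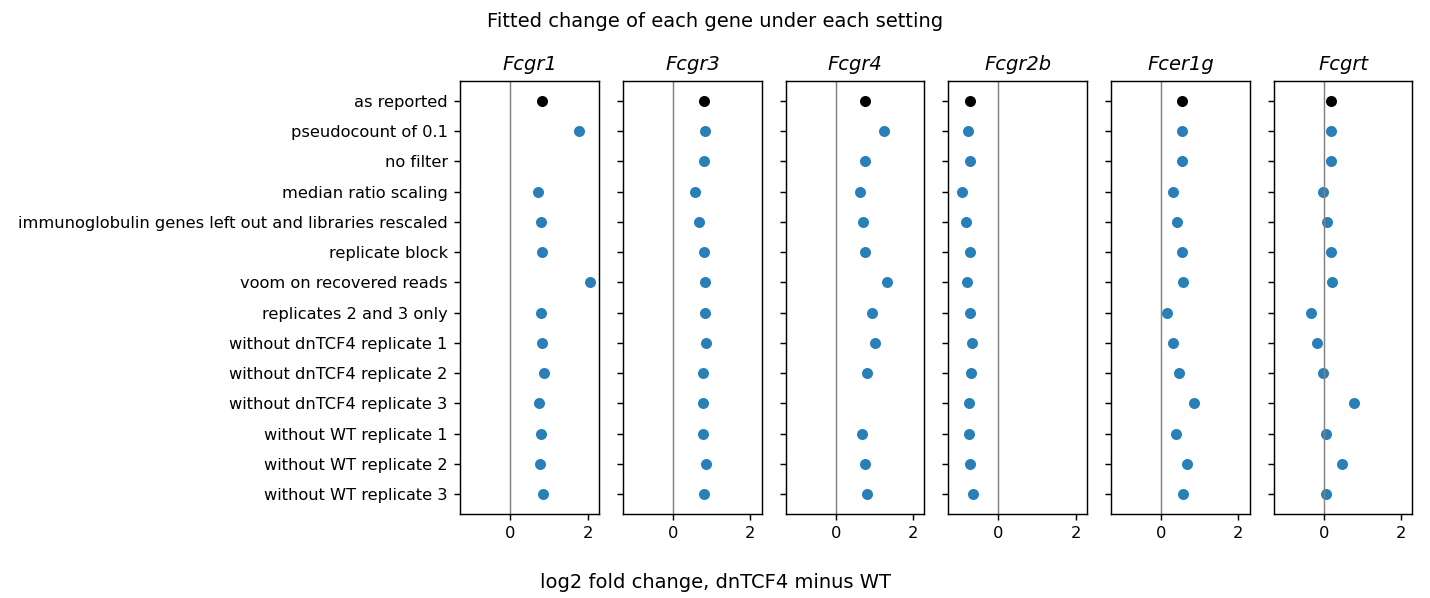
Log2 fold change (dnTCF4 minus WT) of each gene under the reported setting (black) and each alternative (blue). Fcgr1 values come from fits without a filter, and Fcgr4 has none without dnTCF4 replicate 3. Fcgr3 and Fcgr2b stay on opposite sides of 0 in each setting shown, and Fcgrt crosses 0.

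Over the 6 libraries, Fcgr3 followed Fcgr1 (Pearson r = 0.96 on log2(RPKM + 1)) and ran against Fcgr2b (r = -0.95). Fcer1g followed Fcgrt (r = 0.84) more closely than Fcgr3 (r = 0.53). These are descriptions over 6 libraries that fall into 2 genotypes and share their depth and scaling. Among tested genes the closest to Fcgr3 were Tmem100, Erich1 and Fam174b, with r of 0.998, 0.996 and 0.994. Closest to Fcgr2b were Adam2 and the antibody variable segments Igkv3-4 and Ighv1-47, with r of 0.995, 0.988 and 0.983. Closest to Fcer1g were Sgsh, Pip4k2c and Polr3gl, with r of 0.987, 0.987 and 0.986. Closest to Fcgrt were Nmb, Irf7 and Hfe, with r of 0.998, 0.994 and 0.991, and closest to Fcgr4 were B230307C23Rik, Tex30 and Casp4, with r of 0.997, 0.992 and 0.992.

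Fcgr2b (GRCm38 chromosome 1, 170958617 to 170976547, minus strand), Fcgr4 (171018920 to 171029761, plus strand) and Fcgr3 (171051174 to 171064935, minus strand) are neighbours, and Fcer1g (171229572 to 171234365, minus strand) starts 257.8 kb from the Fcgr2b start. Fcgr1 lies on chromosome 3 (96282909 to 96293969, minus strand) and Fcgrt on chromosome 7 (45092990 to 45103851, minus strand). All are protein-coding. Within 100 kb of this cluster of chromosome 1, 14 other genes were tested, of which 9 had higher and 5 lower values in dnTCF4 and 0 were called by limma. At an unadjusted p under 0.05 were Fcrla and Gm2962, and Gm2962 lies inside Fcrla on the same strand, so their counts are uncertain. The median of the 14 log2 fold changes was 0.07, where that of all tested genes was 0.14. Of all tested genes 68.5% were higher, 9.62% had an unadjusted p under 0.05 and 0.3% were called. Fcrla, an Fc receptor-like protein of B cells that lies beside Fcgr2b, was at 2.60, 1.05 and 2.67 RPKM in dnTCF4 libraries 1 to 3, against 10.2, 7.61 and 6.63 RPKM in WT libraries 1 to 3. These groups did not overlap, with a log2 fold change of -1.59 (SE 0.28, limma adjusted p = 0.11). Sdhc, a respiratory chain subunit between Fcgr3 and Fcer1g, had a log2 fold change of 0.33 (limma adjusted p = 0.59).

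**Figure D4:**
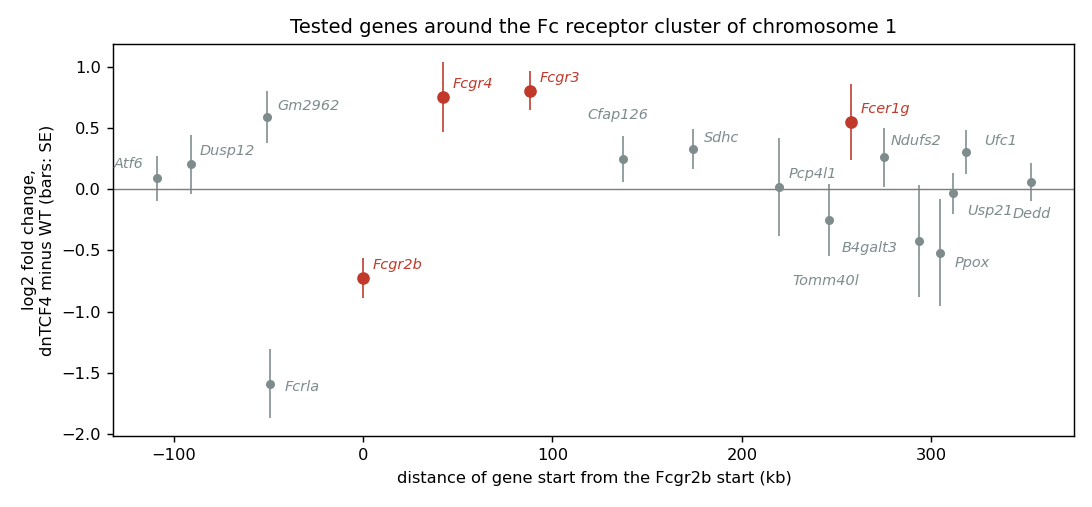
Log2 fold change (dnTCF4 minus WT, bars for SE) of tested genes against the distance of their start from the Fcgr2b start in kb, with the Fc receptor genes in red. Fcgr2b and Fcrla lie below 0, at -0.73 and -1.59, while Fcgr4 and Fcgr3, within 100 kb of Fcgr2b, lie above 0 at 0.75 and 0.81.

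The stretches before the starts of the 4 receptor genes whose groups did not overlap are shown to compare genes that differed in direction. Each is the 250 bases upstream of a RefSeq start (GRCm38.p6, given 5′ to 3′ on the strand of the gene). Capitals mark GAGGAA, the PU box bound by the myeloid factor PU.1, read on either strand.
Fcgr1 (chr3:96293970-96294219, minus): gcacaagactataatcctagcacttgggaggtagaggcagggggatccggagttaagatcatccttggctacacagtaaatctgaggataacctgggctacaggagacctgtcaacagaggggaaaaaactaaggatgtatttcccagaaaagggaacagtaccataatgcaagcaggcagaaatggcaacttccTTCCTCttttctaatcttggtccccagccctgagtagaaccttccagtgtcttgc
Fcgr3 (chr1:171059404-171059653, minus): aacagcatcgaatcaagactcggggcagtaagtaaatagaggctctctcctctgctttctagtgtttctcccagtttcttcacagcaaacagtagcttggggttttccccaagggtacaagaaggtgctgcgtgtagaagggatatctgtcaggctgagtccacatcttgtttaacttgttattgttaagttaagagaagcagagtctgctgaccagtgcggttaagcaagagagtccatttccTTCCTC
Fcgr4 (chr1:171018676-171018925, plus): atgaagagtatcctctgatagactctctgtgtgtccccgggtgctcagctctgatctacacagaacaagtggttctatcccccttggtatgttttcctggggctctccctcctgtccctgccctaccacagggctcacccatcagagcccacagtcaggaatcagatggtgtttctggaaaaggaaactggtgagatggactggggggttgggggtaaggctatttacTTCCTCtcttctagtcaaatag
Fcgr2b (chr1:170976072-170976321, minus): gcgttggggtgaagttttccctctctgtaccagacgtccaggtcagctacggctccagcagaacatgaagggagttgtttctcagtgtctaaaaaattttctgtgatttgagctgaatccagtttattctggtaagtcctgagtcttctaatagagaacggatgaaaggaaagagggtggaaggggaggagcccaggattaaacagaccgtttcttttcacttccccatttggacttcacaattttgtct
The PU box letters occurred once in each of the 3 activating receptor genes, beginning 55, 6 and 22 bases before the start of Fcgr1, Fcgr3 and Fcgr4, and did not occur in the windows of Fcgr2b, Fcer1g and Fcgrt. Of 32851 promoter windows of this length, 23.3% held them. The C/EBP letters TTNNGCAA, for the granulocyte factors of that family, occurred in the windows of Fcgr3 and Fcgrt and in 9.56% of all windows. The TCF/LEF letters CTTTGAA and CTTTGAT, likewise read on both strands, were in 0 of the 6 windows, and in 4.46% and 3.21% of all windows. For Fcgr3 the more upstream of its RefSeq starts was used, which lies inside the longer GENCODE gene. The Fcgr2b window likewise lies inside its GENCODE gene, which on the minus strand begins at 170976547. Bases upstream of the GENCODE starts of Fcgr3 and Fcgr2b were not searched. Spi1, the gene of PU.1, was at 8.46 ± 0.668 RPKM in dnTCF4 and 8.21 ± 1.13 in WT (log2 fold change 0.04, limma adjusted p = 0.92).

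Most tested receptors that borrow the Fcer1g chain had higher values in dnTCF4, as did most tested genes. Of 13 such genes listed, 7 were tested, 6 had higher and 1 lower values, 5 had an unadjusted p under 0.05 and 1 was called by limma. Among all tested genes 68.5% were higher, 9.62% had such a p and 0.0441% were called higher. The called one was Clec4b1, a C-type lectin receptor of myeloid cells, at 6.70, 5.74 and 6.93 RPKM in dnTCF4 libraries 1 to 3, against 2.17, 1.38 and 2.11 RPKM in WT libraries 1 to 3. Its log2 fold change was 1.38 (SE 0.18, limma adjusted p = 0.046), and 1.19 to 1.78 over 13 alternatives, of which the replicate block alone kept the call (adjusted p = 0.039). With any 1 of the 6 libraries left out the call was lost (adjusted p 0.11 to 0.16). The 7 log2 fold changes had a median of 0.58, and of 0.43 with 5 of 7 higher after median ratio scaling. Clec4d and Clec4e, lectin receptors for mycobacterial glycolipid, were at 32.6 ± 6.78 and 51.6 ± 7.68 RPKM in dnTCF4, and at 14.6 ± 1.99 and 27.2 ± 7.42 RPKM in WT (limma adjusted p = 0.14 and 0.25). Pira2, an activating paired immunoglobulin-like receptor, was at 2.22 ± 0.299 RPKM in dnTCF4 and 1.16 ± 0.249 in WT (limma adjusted p = 0.30). Fcer1a, the IgE-binding chain of mast cells and basophils, was the lower one, at 4.13, 15.4 and 15.6 RPKM in dnTCF4 libraries 1 to 3, against 19.7, 27.6 and 23.4 RPKM in WT libraries 1 to 3 (limma adjusted p = 0.50).

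Other adaptors with activating motifs gave 5 tested genes of 9, 4 higher and 1 lower (3 of 5 higher after median ratio scaling). Limma called 0 of them, with 3 at an unadjusted p under 0.05. The shares of all tested genes were 68.5% higher and 9.62% at such a p. Tyrobp, the DAP12 adaptor of myeloid and natural killer cells, was at 800.1, 627.3 and 924.3 RPKM in dnTCF4 libraries 1 to 3, against 490.9, 526.5 and 566.2 RPKM in WT libraries 1 to 3. Its groups did not overlap, and dnTCF4 replicate 3, the lowest dnTCF4 library for Fcer1g, was the highest for Tyrobp. Its log2 fold change was 0.55 (limma adjusted p = 0.43). Hcst, the DAP10 adaptor, was at 131.3 ± 35.7 RPKM in dnTCF4 and 85.1 ± 9.54 in WT (limma adjusted p = 0.49). Cd79a, a chain of the B cell receptor, was at 10.7 ± 8.74 RPKM in dnTCF4 and 40.4 ± 24.5 in WT (limma adjusted p = 0.36).

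Of 23 genes that act in signalling below activating receptors, 21 were tested, 18 with higher and 3 with lower values in dnTCF4. Limma called 0, with 5 at an unadjusted p under 0.05. Most tested genes of any kind were higher too (68.5%), and 9.62% had such a p. Their median was 0.25 on the log2 scale, and 0.07 with 13 of 21 higher after median ratio scaling. Syk, the kinase recruited by the ITAM, was at 17.0 ± 2.35 RPKM in dnTCF4 and 14.7 ± 1.52 in WT (log2 fold change 0.20, limma adjusted p = 0.72). Lcp2, the adaptor SLP-76, was at 74.3, 80.1 and 73.6 RPKM in dnTCF4 libraries 1 to 3, against 53.0, 43.2 and 45.2 RPKM in WT libraries 1 to 3 (log2 fold change 0.68, limma adjusted p = 0.21). The kinases Btk and Lyn were at 94.4 ± 15.3 and 12.4 ± 2.63 RPKM in dnTCF4, and at 62.6 ± 7.48 and 8.33 ± 1.02 RPKM in WT, each without overlap between the groups (limma adjusted p = 0.415 and 0.49).

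Of 10 genes of phosphatases and of inhibitory receptors or adaptors, 8 were tested, 5 higher and 3 lower, and 0 were called by limma. Their median of 0.16 on the log2 scale was -0.03, with 3 of 8 higher, after median ratio scaling. Their 1 member at an unadjusted p under 0.05 was Pirb, an inhibitory receptor with ITIM motifs like Fcgr2b. Unlike Fcgr2b it had higher values in dnTCF4, 11.6 ± 0.793 RPKM against 5.53 ± 0.576 in WT without overlap (log2 fold change 0.95, SE 0.17, limma adjusted p = 0.11). Of all tested genes 68.5% were higher (41.4% after median ratio scaling) and 15.4% were higher without overlap. An unadjusted p under 0.05 was found for 9.62% of them, and 0.3% were called. Inpp5d, the SHIP1 phosphatase that Fcgr2b recruits, was at 41.1, 43.7 and 12.9 RPKM in dnTCF4 libraries 1 to 3, against 34.7, 37.2 and 32.6 RPKM in WT libraries 1 to 3. dnTCF4 replicate 3 was again the lowest library. Ptpn6, the SHP-1 phosphatase, was at 266.8 ± 68.9 RPKM in dnTCF4 and 270.5 ± 45.2 in WT (limma adjusted p = 0.94).

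**Figure D5:**
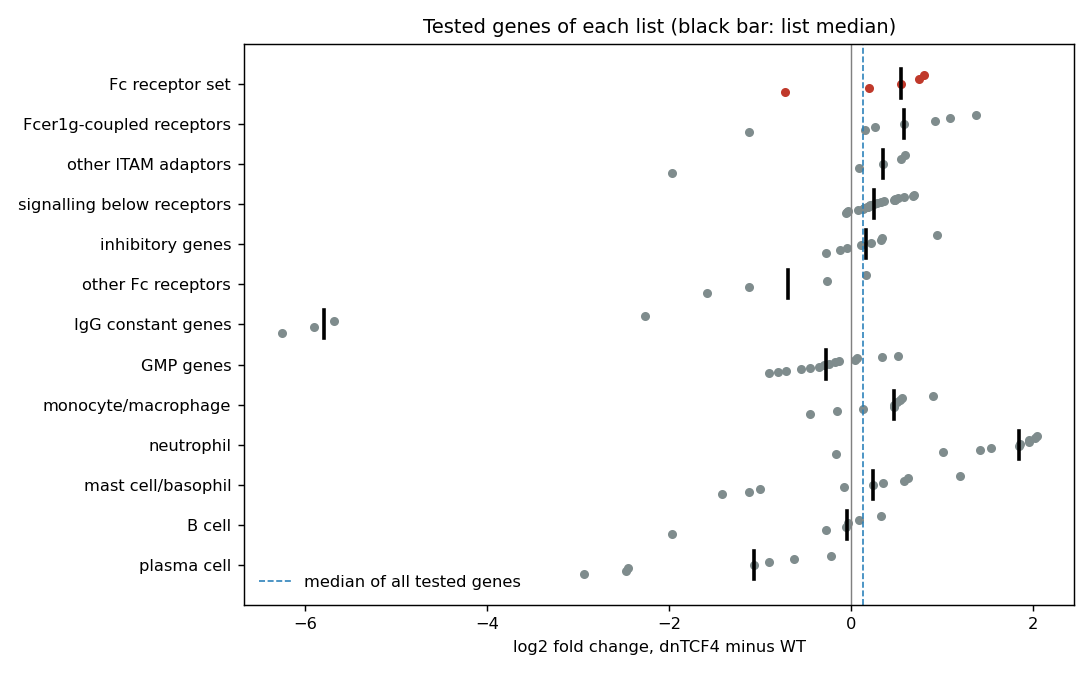
Log2 fold change (dnTCF4 minus WT) of the tested genes of each list, with the Fc receptor genes in red, list medians as black bars and the median of all tested genes, 0.14, as a dashed line. The Fc receptor set spreads from -0.73 to 0.81, while the 4 IgG constant genes lie between -6.26 and -2.27.

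The IgG constant genes encode the ligands of these receptors. RNA of Ighg1, Ighg2b, Ighg2c and Ighg3 summed to 52.7, 46.0 and 23.3 RPKM in dnTCF4 libraries 1 to 3, against 1255, 1054 and 1214 RPKM in WT libraries 1 to 3. All 4 had lower fitted values in dnTCF4, 3 of them without overlap, and their median was -5.80 on the log2 scale. Limma called 0 of the 4, with 3 at an unadjusted p under 0.05, and the lowest adjusted p was 0.0998, for Ighg2b. For comparison, 2.26% of all tested genes were lower without overlap, 9.62% had such an unadjusted p and 0.256% were called lower. The leading isotype differed between WT libraries: Ighg2b at 576.5 RPKM in library 1, Ighg2c at 407.1 RPKM in library 2 and Ighg1 at 844.6 RPKM in library 3. Among 11 receptors for other antibody classes or Fc receptor-like genes, 4 were tested, 1 higher and 3 lower (0 of 4 higher after median ratio scaling), and limma called 0, with Fcrla and Fcer1a at an unadjusted p under 0.05. Trim21, the cytosolic Fc receptor, was at 32.3 ± 5.43 RPKM in dnTCF4 and 28.6 ± 3.69 in WT (limma adjusted p = 0.75).

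Genes of granulocyte-monocyte progenitors, the cells marked by CD16/32, mostly had lower values in dnTCF4. Of 15 listed, 14 were tested, 4 higher and 10 lower, with a median of -0.27 on the log2 scale. Limma called 0, with 1 (Csf3r) at an unadjusted p under 0.05. After median ratio scaling 2 of 14 were higher, with a median of -0.46. Of all tested genes 68.5% were higher (41.4% after that scaling), 9.62% had such an unadjusted p and 0.3% were called. Csf3r, the G-CSF receptor, was at 91.7, 89.6 and 44.7 RPKM in dnTCF4 libraries 1 to 3, against 123.3, 111.7 and 119.6 RPKM in WT libraries 1 to 3. Mpo, the myeloperoxidase of primary granules, was at 460.5, 726.2 and 189.0 RPKM in dnTCF4 libraries 1 to 3, against 350.8, 1599 and 733.8 RPKM in WT libraries 1 to 3. Mpo varied several-fold within either genotype. Prtn3, a granule protease, was at 29.3 ± 9.01 RPKM in dnTCF4 and 56.4 ± 29.7 in WT, and Csf2ra, the GM-CSF receptor alpha chain, at 2.40 ± 0.609 RPKM in dnTCF4 and 1.42 ± 0.700 in WT (limma adjusted p = 0.62 and 0.58).

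Markers of mature cells that carry Fc receptors were read beside these values. Monocyte and macrophage markers had 9 of 14 tested, 7 higher and 2 lower (5 of 8 higher after median ratio scaling), 0 called by limma and 4 at an unadjusted p under 0.05. For comparison, 68.5% of all tested genes were higher and 9.62% had such a p. Their summed RPKM was 239.1 to 307.6 in dnTCF4 and 166.6 to 203.4 in WT. Adgre1, the F4/80 antigen, had a log2 fold change of 0.90 (limma adjusted p = 0.14), and Vcam1, Cd68 and Ly86 had 0.56, 0.50 and 0.54 (limma adjusted p = 0.37, 0.42 and 0.44). Csf1r, the receptor that defines the lineage, was at 4.96 ± 2.42 RPKM in dnTCF4 and 7.14 ± 3.43 in WT. Neutrophil markers summed to 3078, 3730 and 7611 RPKM in dnTCF4 libraries 1 to 3, against 621.5, 755.0 and 3128 RPKM in WT libraries 1 to 3, with 9 of 10 tested members higher. Limma called 0 of them, with 8 at an unadjusted p under 0.05. S100a8, S100a9, Camp and Lcn2 had the smallest p, with log2 fold changes of 2.04, 2.02, 1.96 and 1.86 (limma adjusted p = 0.33, 0.39, 0.39 and 0.45). Of the 10 tested neutrophil markers 1, S100a8, was higher without overlap, where 15.4% of all tested genes were. For S100a9, Camp and Lcn2, WT replicate 3 was above dnTCF4 replicate 1.

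Plasma cell markers had lower values in dnTCF4, as Fcgr2b did, in 7 of 7 tested members. Limma called 0 of the 7, with 6 at an unadjusted p under 0.05. Of all tested genes 68.5% were higher, 9.62% had such an unadjusted p and 0.3% were called. With the replicate block 1 plasma cell marker was called, Mzb1, a secretory chaperone, where 49 of 11326 tested genes were. Its log2 fold change was -2.45 (limma adjusted p = 0.031 under the block, against 0.14 without it). The markers of this list summed to 669.1, 305.4 and 654.6 RPKM in dnTCF4 libraries 1 to 3, against 7835, 2712 and 2624 RPKM in WT libraries 1 to 3. Irf4, Jchain, Tnfrsf17 and Derl3 had the smallest p, with log2 fold changes of -0.91, -2.94, -2.48 and -1.07 (limma adjusted p = 0.079, 0.0998, 0.11 and 0.14). B cell markers had 2 of 6 tested members higher and 4 lower, with 1 (Cd79a) at an unadjusted p under 0.05. Mast cell and basophil markers had 5 of 9 higher and 4 lower. The basophil proteases Mcpt8 and Prss34, and Fcer1a, were lower without overlap, where 2.26% of all tested genes were. Mcpt8 and Prss34 were at 51.9 ± 11.02 and 56.8 ± 8.77 RPKM in dnTCF4, and at 105.1 ± 22.4 and 162.1 ± 66.5 RPKM in WT (limma adjusted p = 0.20 and 0.19). Of the higher members Cma1 had the smallest p, with a log2 fold change of 1.20 (limma adjusted p = 0.53) and overlapping groups. Natural killer markers had 3 of 4 tested members higher and megakaryocyte markers 4 of 4, against 2 of 4 for either after median ratio scaling. Limma called 0 members of the B cell, mast cell, natural killer and megakaryocyte lists, with 1, 3, 1 and 2 at an unadjusted p under 0.05. The part of these cells in the Fc receptor values was not tested.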

How the data were processed

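The authors deposited 1 table of RPKM values, 1 column per library. The submitters' processing notes name STAR, featureCounts, DESeq2, edgeR, mm10 and GRCm38, with neither roles nor versions. Which annotation was used, and how reads matching several genes were treated, is not given in the sources used here. Each column was matched to its sample by the sample description, and 0 columns were left over. Per the labels' protocols, cDNA was made with SMART-Seq v4 (the design text names a SMARTer low input kit) and libraries with Nextera XT, a chemistry that does not mark strand. The design text speaks of 3 mice per genotype, and no 2 libraries of the same genotype agreed within sampling noise. By chi-square per gene, larger for less alike libraries, dnTCF4 replicate 3 stood at 371.8 and 453.1 from replicates 1 and 2. Those 2 stood at 147.4 from each other. WT replicate 1 stood at 400.4 and 332.6 from replicates 2 and 3, which stood at 154.3 from each other.

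RPKM times GENCODE M21 exon length fell on whole reads, within 0.02, for 95.6% to 96.1% of genes checked, which gave the depth. Confidence limits cover sampling between libraries, and amplified reads are not independent molecules. The test was limma 3.58.1 (R 4.3.3; trend, genotype only, two-sided) on log2(RPKM + 1), for genes averaging 1 RPKM or more, and p-values were adjusted over all tested genes. The fit was tested on simulated counts, drawn independently for each library with the same spread setting for every gene. That simulation held neither outlying nor paired libraries, so it does not cover those features of the data. Ratios were tested with exact permutation tests (scipy 1.17.1, Python 3.11.15). Alternatives were a pseudocount of 0.1, no filter, median ratio scaling, immunoglobulin genes left out together with rescaling to the remaining reads, a replicate block, voom on recovered reads, replicates 2 and 3 only, and each library left out. Replicate numbers 1, 2 and 3 occur in both genotypes. Deviations from the group means correlated at 0.17, 0.35 and 0.30 between same-numbered libraries, above the bound of 0.1. Between differently numbered libraries they correlated at -0.33 to 0.09. The numbers may therefore pair the libraries, but no source used here states a paired design. The main fit and permutation tests left pairing out, and the replicate block gives the results with it. The block changed no call among the 6 genes.

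The 6 genes and the lists were chosen with earlier results of these data known. The text names the 6 genes, Tcf7l2, sort genes, from each list at most 4 members by smallest p and those with a stated role, the 3 closest genes by correlation, and neighbours on chromosome 1. Spi1, Csf1r, Mpo and Mzb1 were named besides, after their values were seen. Some genes that this rule names are not reported here.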

Additional observations from a re-analysis of the deposited data

How the results depend on the processing

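Over all alternatives run, Fcgr1, Fcgr3, Fcgr4 and Fcer1g kept higher and Fcgr2b lower values in dnTCF4, and none of the 6 genes was called. The fitted log2 fold change ranged from 0.57 to 0.87 for Fcgr3 and from -0.94 to -0.67 for Fcgr2b, with adjusted p of 0.15 to 0.55 for Fcgr3 and 0.086 to 0.62 for Fcgr2b. Fcgr1 ranged from 0.71 to 2.06, Fcgr4 from 0.62 to 1.33 and Fcer1g from 0.15 to 0.86. Leaving out 1 library at a time gave 0.75 to 0.86 for Fcgr1, -0.78 to -0.67 for Fcgr2b, 0.77 to 0.87 for Fcgr3, 0.68 to 1.01 for Fcgr4, 0.31 to 0.86 for Fcer1g and -0.17 to 0.77 for Fcgrt. Fcgrt was -0.0088 after median ratio scaling and -0.32 in replicates 2 and 3 only, -0.17 without dnTCF4 replicate 1 and -0.0130 without dnTCF4 replicate 2. The Fcgr3 to Fcgr2b difference was 1.56 to 1.68 with 1 library left out, that of Fcer1g to its alpha chains -0.61 to 0.0645 (0.0645 without dnTCF4 replicate 3), and that of Fcgrt to B2m -0.77 to 0.49 (0.49 without dnTCF4 replicate 3, 0.0602 without WT replicate 2). The cause of these turns was not tested.

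The count of 34 called genes was 49 with the replicate block, 29 with a pseudocount of 0.1, 6 without a filter, 18 after median ratio scaling, 0 by limma with immunoglobulin genes left out and libraries rescaled to the remaining reads, 2 changes made together (666 at an unadjusted p under 0.05), 14 by voom and 10 in replicates 2 and 3 only. With 1 library left out it was 7 to 34: 22, 16 and 11 without dnTCF4 replicates 1, 2 and 3, and 7, 34 and 18 without WT replicates 1, 2 and 3. With the block, adjusted p was 0.15 for Fcgr2b and 0.18 for Fcgr3, and no call among the 6 genes changed. Of the listed genes, Clec4b1 kept its call and Mzb1 gained one. Depth limits Fcgr1 and Fcgr4 most, at 38 and 44 reads in their lowest libraries.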
